A study of Mus musculus with 11 samples.

Results

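Macrophages and other myeloid leukocytes of the mouse cochlea were followed through 38 genes known as markers or effectors of these cells, taken as a fixed list of symbols. Probes were matched to the symbols through the transcript accession on the array, and 37 of the 38 genes had a probe bright enough to be kept, out of 18565 genes with a kept probe in all. The remaining gene, Cd68, had no matched probe and was not analysed here. Each gene was represented by its brightest kept probe.

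The arrays compared otospheres (OS), which are spheres that grow from dissociated cells of the newborn cochlea, with the cochlear sensory epithelium (CSE) they come from and with mouse embryonic stem cells (ESCs). The study asked how the expression program of the spheres relates to that of the tissue and of pluripotent cells. Both OS and CSE were from newborn ICR mice, without a transgene. Each CSE preparation pooled the dissected epithelium of several mice, from which the spiral ligament and stria vascularis had been peeled away, and no sorting of cells is described. OS were grown in suspension with bFGF, IGF1 and heparan sulfate, passaged once, and filtered before lysis to keep the small solid spheres. No leukocyte growth factor is named for that medium. ESCs were the lines G4-2 (ESC1) and D3 (ESC2), both at passage 13, feeder-free in serum with LIF, so the group holds 1 array of each of 2 lines rather than replicates of one.

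In all, 11 arrays were hybridised, 6 of OS, 3 of CSE and 2 of ESCs. OS1 and OS2 differed by 0.900 of the noise between repeated spots of one probe, and OS4 and OS5 by 0.407 of it, so each pair was averaged and counted as 1 sample (OS1/2 and OS4/5). This left 4 OS, 3 CSE and 2 ESC samples. ESC1, OS1 to OS3, CSE1 and CSE2 lay on slide 1, and ESC2, OS4 to OS6 and CSE3 on slide 2. Values are log2 signal after background correction and quantile normalization between arrays, so that 1 unit is a 2-fold difference, and differences are of group means with the standard error of the limma fit. The weakest signal that the scanner software called well above background lay at 4.02 to 5.53 on the 11 arrays. Between 55.1% and 71.6% of the spots of an array were well above background, and 0 were saturated. All 4 pluripotency genes examined (Pou5f1, Nanog, Zfp42 and Utf1) were well above background on both ESC arrays. All 4 hair cell genes and 4 supporting cell genes were so on every OS and CSE array. However, 3 of the hair cell and 2 of the supporting cell genes were also detected on both ESC arrays. Of the pluripotency genes, 2 were detected on every OS and CSE array, so detection overlapped between the groups. The Nanog probe read 8.50 and 8.26 in ESCs and 8.82 to 10.75 in OS. P-values measure the spread between these samples, and nothing in the labels says how far the cultures and dissections were independent.

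Resident macrophages settle in the cochlea before birth and lie along its vessels, among its neurons and beneath the sensory epithelium, where they clear debris and react to hair cell loss. Their survival depends on the receptor Csf1r, their identity on the Ets factor PU.1 (encoded by Spi1), and their sensing of damaged cells on complement C1q, Fc receptors and Trem2. Of these, the Fc receptors and Trem2 signal through the ITAM adaptors Fcer1g and Tyrobp. MHC class II proteins, loaded with the help of Cd74, present peptides to T cells, and a phagocyte NADPH oxidase built around Cybb and Cyba makes superoxide.

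The letters GAGGAA, the core that PU.1 recognises, were searched on both strands (TTCCTC on the other) in the 250 bases upstream of the RefSeq transcript starts of build GRCm38.p6. Of the 38 genes, 29 had an entry. At least 1 match was found for 13 of these 29 (44.8%), against 25.9% of all 27025 genes in the table. The 13 comprised 9 of the 14 genes that were lower in OS than in CSE (64.3%), 3 of the 14 others with a probe (21.4%), and Cd68. The 120 bases before the start are printed 5′ to 3′ on the strand of the gene for genes whose values are given in full below and that held a match there, with the matched letters in capitals.
C1qb (chr4:136886201-136886320, minus strand): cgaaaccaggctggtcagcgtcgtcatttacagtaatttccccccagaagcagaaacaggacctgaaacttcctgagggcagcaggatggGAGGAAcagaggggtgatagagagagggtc
Mrc1 (chr2:14229294-14229413, plus strand): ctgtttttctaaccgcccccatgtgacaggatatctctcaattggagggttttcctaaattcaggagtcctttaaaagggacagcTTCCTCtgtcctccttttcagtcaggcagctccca
Trem2 (chr17:48346281-48346400, plus strand): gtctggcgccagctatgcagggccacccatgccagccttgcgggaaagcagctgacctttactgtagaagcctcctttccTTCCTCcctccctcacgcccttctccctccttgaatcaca
Laptm5 (chr4:130913196-130913315, plus strand): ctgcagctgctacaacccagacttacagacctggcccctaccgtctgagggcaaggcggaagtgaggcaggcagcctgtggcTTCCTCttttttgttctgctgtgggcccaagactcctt
Pf4 (chr5:90772315-90772434, plus strand): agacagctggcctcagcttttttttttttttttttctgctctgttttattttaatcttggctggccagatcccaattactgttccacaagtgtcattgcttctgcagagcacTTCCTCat
F13a1 (chr13:37050245-37050364, minus strand): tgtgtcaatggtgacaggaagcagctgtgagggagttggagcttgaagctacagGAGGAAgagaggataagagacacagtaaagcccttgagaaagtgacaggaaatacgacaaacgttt
Aif1 (chr17:35176053-35176172, minus strand): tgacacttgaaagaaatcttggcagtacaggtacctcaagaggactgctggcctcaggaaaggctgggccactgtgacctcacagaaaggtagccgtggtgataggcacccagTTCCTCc
All of these genes but Aif1 were called lower in OS than in CSE. C1qc and Ctss held the letters farther upstream. A match describes only the letters in this window.

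Many of the macrophage genes were lower in OS than in the CSE from which the spheres were grown. Of the 37 genes, 18 were lower in OS, where 10.3% of all genes were called lower, and 3 were higher, where 7.17% of all genes were called higher (limma, Benjamini-Hochberg adjusted p below 0.05). The remaining 16 did not pass the test. The median difference of OS from CSE was -1.15 on the log2 scale over the 37 genes and -0.01 over all genes. Every OS sample lay below every CSE sample for 19 of the 37 genes (51.4%), compared with 18.9% of all genes, and above for 4 (10.8%), compared with 14.1%. In arrays of whole tissue or spheres, fewer cells of a type and less RNA of a gene per cell cannot be told apart.

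**Figure D1:**
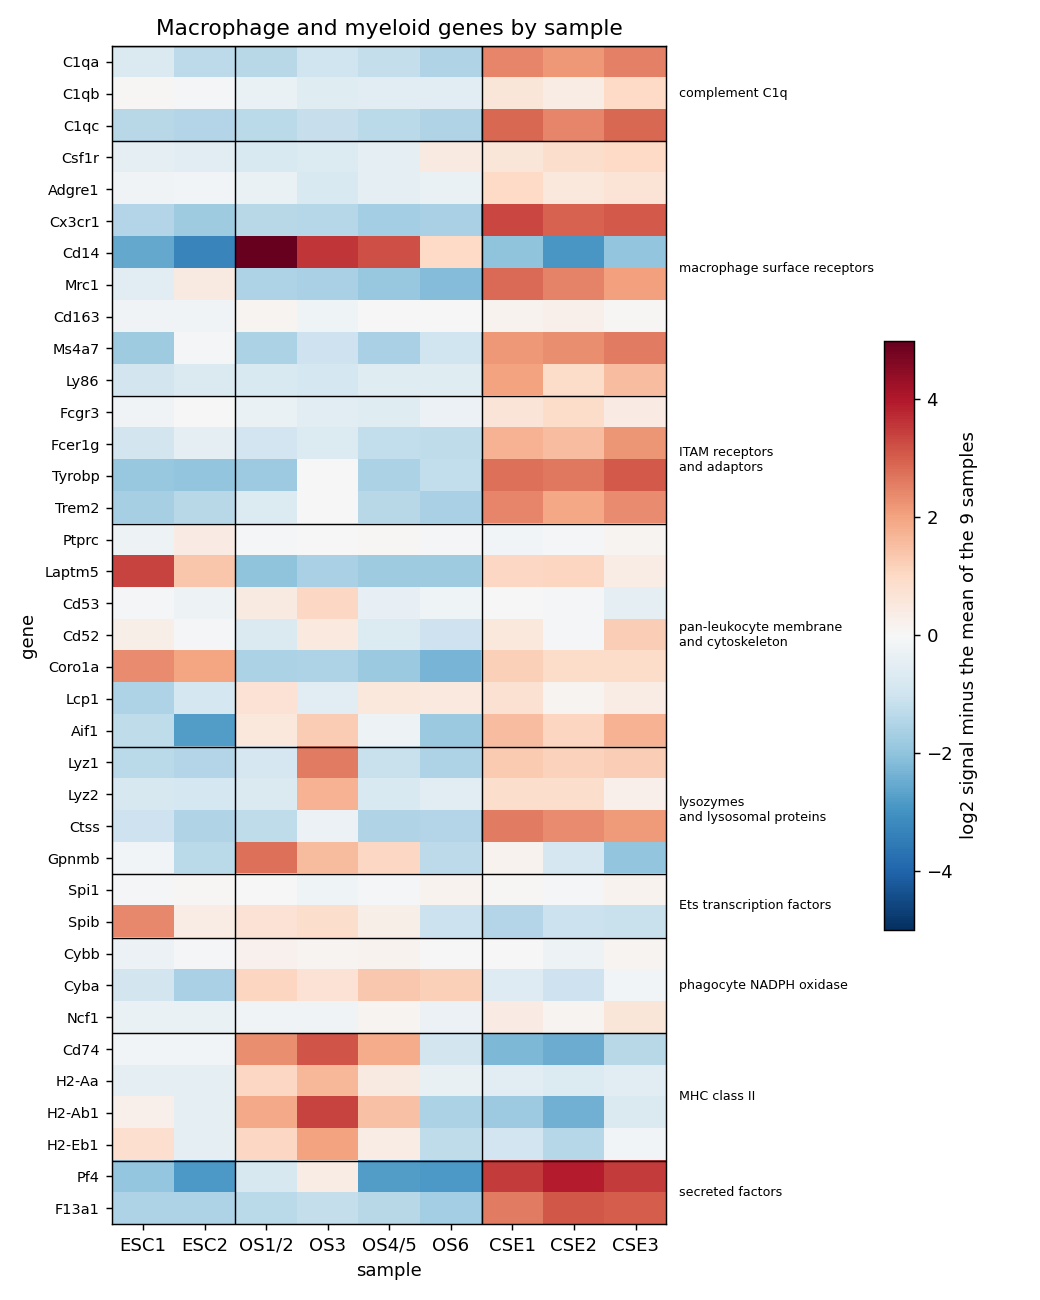
Log2 signal of the 37 genes in the 9 samples, each gene centred on its mean over the samples, with genes in rows grouped by role and samples in columns (red above the mean, blue below). The C1q, ITAM adaptor and secreted factor rows are red in the 3 CSE samples and blue or near white in OS and ESCs, whereas Cd14 and the MHC class II rows are red in OS1/2, OS3 and OS4/5.

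The 3 chains of C1q, the recognition subunit of the classical complement pathway, were all lower in OS. C1qc read 5.02, 5.21, 5.00 and 4.86 in OS1/2, OS3, OS4/5 and OS6, and 9.24, 8.81 and 9.23 in CSE1, CSE2 and CSE3. C1qa read 4.89, 5.27, 5.06 and 4.76 in OS and 8.69, 8.44 and 8.78 in CSE. Neither probe was well above background on any OS array, so CSE was at least 15.8-fold over OS for C1qc (difference -4.07 ± 0.17 (SE), limma adjusted p = 9.02e-06) and at least 11.4-fold for C1qa (-3.64 ± 0.20, adjusted p = 3.85e-05). C1qb, whose probe was detected on all 6 OS arrays, read 7.02, 6.73, 6.80 and 6.81 in OS against 7.95, 7.70 and 8.34 in CSE, a difference of -1.15 ± 0.18 (limma adjusted p = 0.0042). The groups did not overlap for any of the chains. In the table of log2 values that the authors deposited, the difference for C1qc was -0.52 (limma adjusted p = 0.0757), but its values there ran from 0.31 to 0.93, where the median of the table was 6.91, so their scale is unclear and -0.52 cannot be set beside -4.07. In ESCs C1qa and C1qc were not well above background either, and C1qb read 7.40 and 7.28.

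Of the 8 surface receptors measured, 6 were lower in OS, 1 was higher and 1 could not be read. Cx3cr1, the fractalkine receptor, read 5.58, 5.56, 5.27 and 5.38 in OS and 10.33, 9.93 and 10.07 in CSE, a difference of -4.66 ± 0.17 (limma adjusted p = 4.97e-06), with the probe well above background on 1 of the 6 OS arrays. Its other probe gave a smaller difference of -1.63 (adjusted p = 0.00239). Mrc1, the mannose receptor, read 5.36, 5.27, 5.03 and 4.73 in OS, on no array well above background, and 9.75, 9.39 and 8.94 in CSE, at least 17.8-fold over OS (-4.26 ± 0.30, limma adjusted p = 9.7e-05). For both genes the lowest CSE sample stood more than 3 log2 units above the highest OS sample. Ms4a7 (CSE at least 12-fold over OS), Ly86 (-2.22), Adgre1, which encodes the F4/80 antigen (-1.21, and -2.57 for its other probe), and Csf1r (-1.20) were lower as well. Csf1r read 10.77, 10.86, 11.04 and 11.99 in OS, 12.13, 12.41 and 12.54 in CSE and 11.06 and 10.95 in ESCs. Its OS6 value lay close to CSE1, and its ESC values lay among those of OS. Csf1r was also the least stable call of the group (limma adjusted p = 0.0307): its other probes differed by -0.71 (adjusted p = 0.0348) and -0.47 (adjusted p = 0.273), and leaving out OS1/2, OS3, OS4/5 or any CSE sample took it past the threshold. Cd163, a scavenger receptor for haemoglobin, was not well above background in any group.

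Cd14, the co-receptor for lipopolysaccharide, went the other way and was the gene of the list most raised in OS. It read 14.32, 12.92, 12.54 and 10.31 in OS1/2, OS3, OS4/5 and OS6, 7.31, 6.42 and 7.34 in CSE, and 6.78 and 6.04 in ESCs. Every OS sample was above every CSE and ESC sample, with OS6 the lowest of the 4. The difference from CSE was 5.50 ± 0.79 (45.3-fold, limma adjusted p = 0.00272), and it was 6.76 between the samples of slide 1 and 4.08 between those of slide 2.

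**Figure D2:**
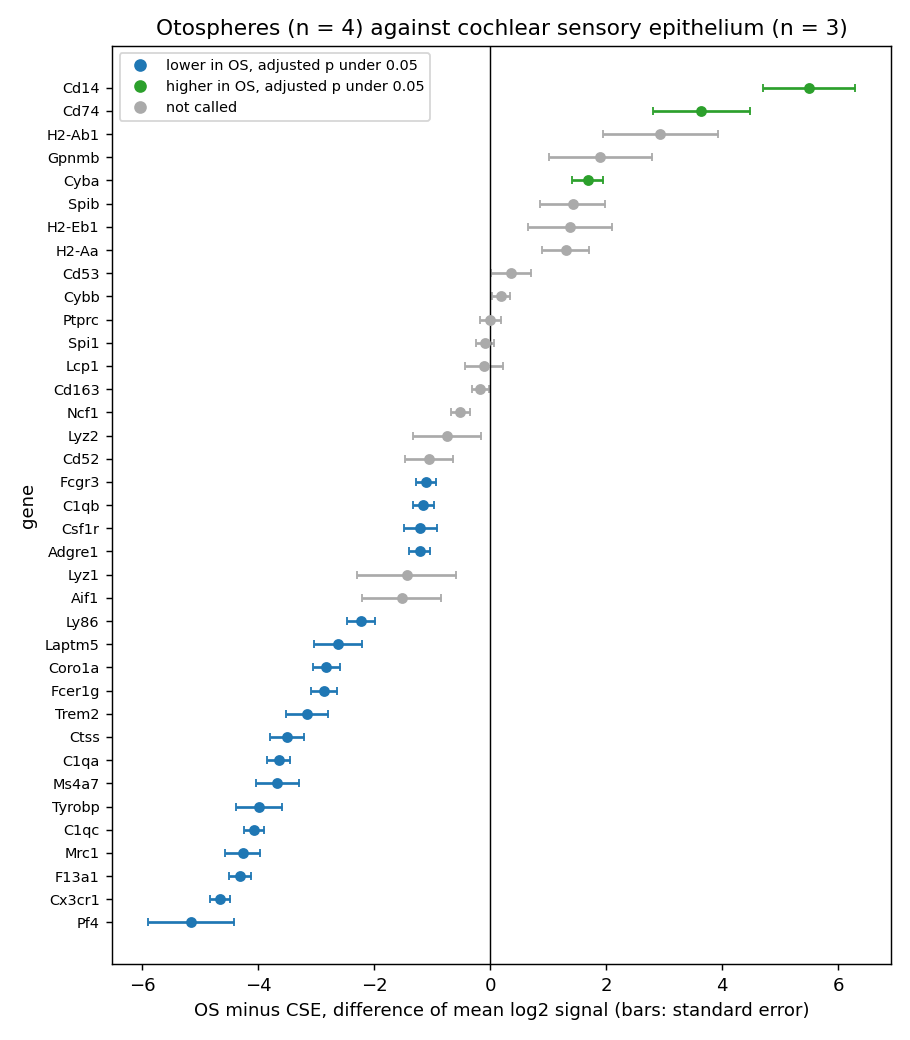
Difference of mean log2 signal between OS (n = 4) and CSE (n = 3) for each of the 37 genes, sorted, with bars of 1 standard error. The 18 genes lower in OS run from Pf4 (-5.16) to Fcgr3 (-1.11), and the 3 genes called higher are Cd14, Cd74 and Cyba.

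The ITAM receptors and adaptors were lower in OS for all 4 genes. Tyrobp, the adaptor DAP12, read 5.00, 6.83, 5.25 and 5.60 in OS and 9.59, 9.47 and 9.89 in CSE (-3.98 ± 0.39, limma adjusted p = 0.000457). Trem2, the lipid-sensing receptor that signals through it, read 6.01, 6.70, 5.32 and 5.08 in OS and 9.12, 8.63 and 9.04 in CSE (-3.15 ± 0.36, limma adjusted p = 0.000992). Fcer1g, the common Fc receptor gamma chain, read 7.08, 7.38, 6.81 and 6.77 in OS and 9.79, 9.60 and 10.24 in CSE (-2.86 ± 0.23, limma adjusted p = 0.000186). OS3 was the highest OS sample for these 3 genes, and it was the sole OS array on which Tyrobp was well above background, yet it remained below every CSE sample for each. Fcgr3 was not well above background on any OS array, with CSE at least 2.14-fold over OS.

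Both secreted factors were lower in OS. Pf4, a chemokine made by megakaryocytes and by some tissue macrophages, read 6.79, 7.94, 4.79 and 4.70 in OS, 11.08, 11.51 and 11.07 in CSE, and 5.63 and 4.73 in ESCs. The difference from CSE was -5.16 ± 0.74 (limma adjusted p = 0.00276), with the probe well above background on 3 of the 6 OS arrays. The difference was -3.93 within slide 1 and -6.32 within slide 2. F13a1, the coagulation factor XIII A subunit, was not well above background on any OS array (4.94, 5.11, 4.90 and 4.58) and read 8.87, 9.39 and 9.33 in CSE, at least 17.2-fold over OS (-4.31 ± 0.19, limma adjusted p = 1.18e-05).

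Of 7 genes for membrane and cytoskeletal proteins that leukocytes share, 2 were lower in OS. Coro1a, an actin regulator, read 6.51, 6.55, 6.21 and 5.74 in OS and 9.26, 8.98 and 8.98 in CSE (-2.82 ± 0.23, limma adjusted p = 0.000188). Laptm5, a lysosomal membrane protein, read 5.40, 5.78, 5.62 and 5.64 in OS and 8.43, 8.48 and 7.77 in CSE (-2.62 ± 0.42, limma adjusted p = 0.00464). Both were above their CSE level in ESCs, where Coro1a read 10.46 and 10.04 and Laptm5 10.79 and 8.78. The difference of CSE from ESCs was -1.56 for Laptm5 (limma adjusted p = 0.0456) and -1.18 for Coro1a (adjusted p = 0.011). The first missed the threshold in 13 of 19 alternatives, among them those without ESC1, without any one OS sample or without any one CSE sample (adjusted p up to 0.271), and the second in 2 of 19, those without ESC1 and with 75th percentile scaling (adjusted p up to 0.0754). Ptprc, the leukocyte antigen CD45, read 5.65 to 5.78 in OS and 5.62 to 5.88 in CSE, a difference of 0.00 ± 0.18. Its probe lay just above the detection limit and read 5.50 and 6.13 in ESCs, so a difference in CD45 could have gone unseen. The differences were 0.36 for Cd53, -1.05 for Cd52, -0.11 for Lcp1 and -1.52 for Aif1, none of which passed the test. Aif1, which encodes the macrophage protein IBA1, stayed at 8.57, 9.30, 7.80 and 6.19 in OS against 9.59, 9.10 and 9.78 in CSE, so OS3 overlapped with CSE.

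Among the lysozymes and lysosomal proteins, Ctss, a cathepsin of antigen-presenting cells, was lower in OS, at 5.37, 6.35, 5.16 and 5.18 compared with 9.24, 9.02 and 8.79 in CSE (-3.50 ± 0.30, limma adjusted p = 0.000258). Lyz1 and Lyz2, near-identical lysozyme genes whose probes may share transcripts, were high in 1 OS sample. Lyz1 read 9.42 in OS3, above all CSE samples (7.95 to 8.11), and 5.99, 5.69 and 5.28 in OS1/2, OS4/5 and OS6. Lyz2 read 7.36 in OS3 and 4.84 to 5.02 in the other OS samples, with 5.85 to 6.49 in CSE. Neither was called with all samples (adjusted p = 0.407 and 0.569), but without OS3 both were lower in OS, by -2.38 for Lyz1 (limma adjusted p = 0.000588) and -1.36 for Lyz2 (adjusted p = 0.00578). Both calls came from leaving out the high sample, and leaving out any other sample gave none. Gpnmb, a glycoprotein of lipid-laden macrophages that other cells also make, read 10.17, 9.02, 8.47 and 6.12 in OS and 7.58, 6.59 and 5.46 in CSE, a difference of 1.90 ± 0.89 (limma adjusted p = 0.258) that became 2.67 (adjusted p = 0.037) without OS6.

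**Figure D3:**
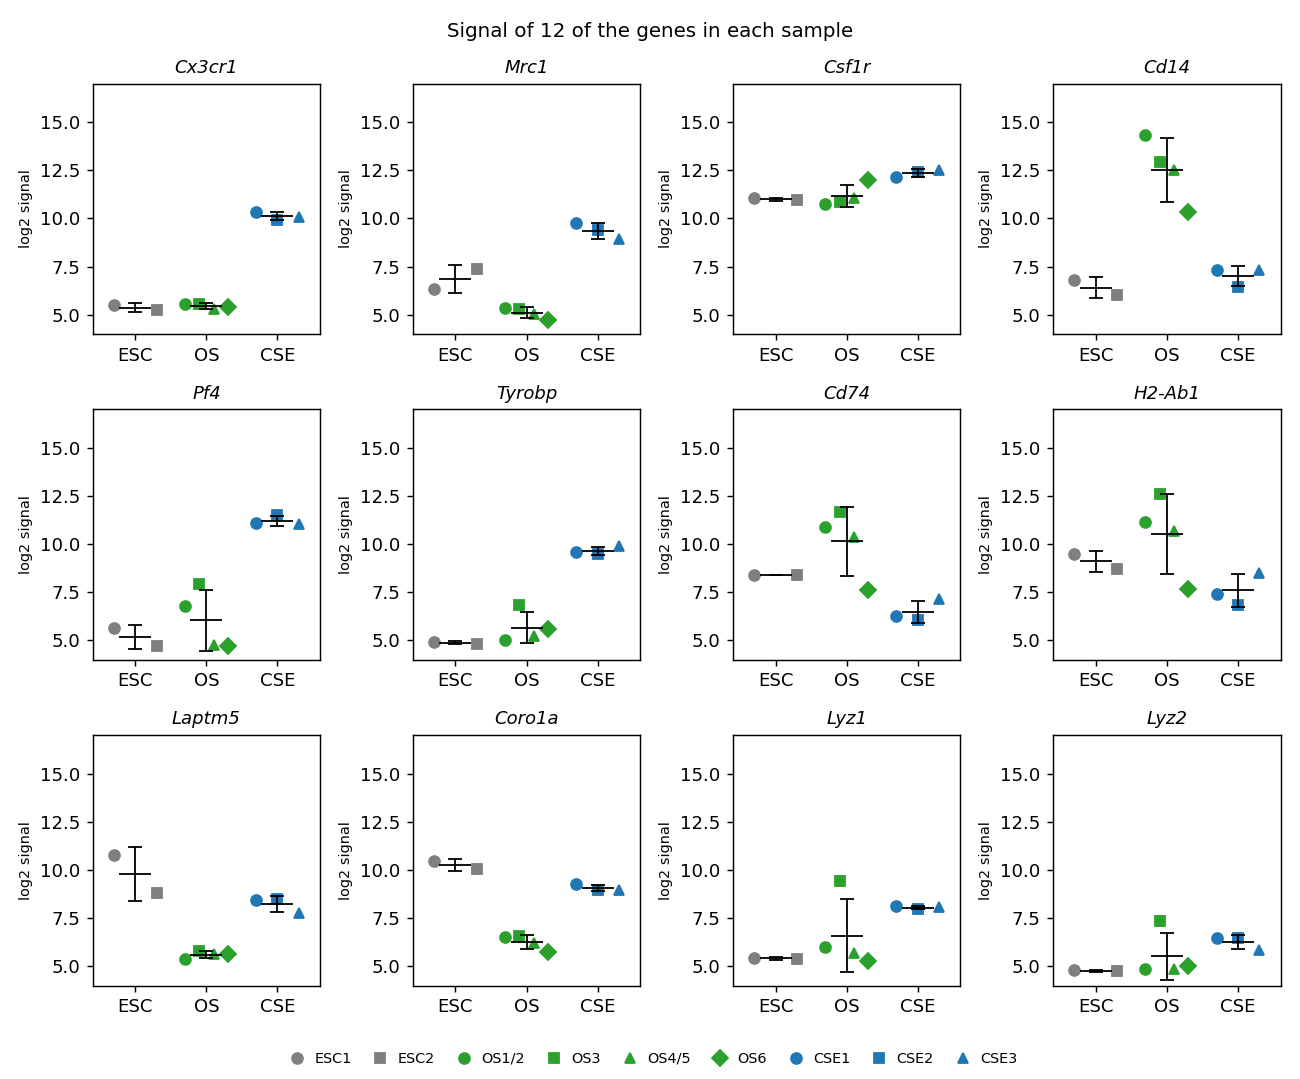
Log2 signal of 12 of the genes in the ESC (n = 2), OS (n = 4) and CSE (n = 3) samples, with a marker shape for each sample and black bars for the mean and SD. OS overlaps with neither CSE nor ESCs for Cd14, lies near ESCs for Cx3cr1, and has 1 high sample, OS3, for Lyz1 and Lyz2.

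Of the 4 MHC class II genes, 1 was called higher in OS, and the values of the other 3 were higher on average. Cd74, the invariant chain, read 10.87, 11.69, 10.39 and 7.61 in OS1/2, OS3, OS4/5 and OS6, 6.28, 6.06 and 7.15 in CSE, and 8.40 and 8.39 in ESCs. All OS samples were above all CSE samples, but OS6 was below both ESC samples. The difference from CSE was 3.64 ± 0.83 (12.5-fold, limma adjusted p = 0.0235), 5.10 within slide 1 and 1.85 within slide 2, and it missed the threshold without OS1/2, without OS4/5 or without any one CSE sample (adjusted p up to 0.0917). H2-Ab1 read 11.15, 12.60, 10.71 and 7.67 in OS and 7.43, 6.85 and 8.51 in CSE. Its difference of 2.93 ± 0.99 did not pass the test (adjusted p = 0.106), while without OS6 it was 3.89 (limma adjusted p = 0.00522). H2-Aa read 6.76, 7.36, 6.17 and 5.33 in OS and was not well above background on any CSE array (1.30 ± 0.41, adjusted p = 0.0821; without OS6 1.66, adjusted p = 0.0102), and H2-Eb1 differed by 1.38 ± 0.72 (adjusted p = 0.317). The 4 genes thus kept 1 order within OS, with OS3 highest and OS6 lowest. H2-Eb1 was the member of the group whose direction differed between the slides, at 2.73 on slide 1 and -0.32 on slide 2.

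Of the NADPH oxidase genes, Cyba, the membrane subunit p22phox that several oxidases share, read 15.18, 14.83, 15.44 and 15.30 in OS, 13.46, 13.09 and 13.99 in CSE and 13.21 and 12.48 in ESCs. Every OS sample was above every CSE and ESC sample, and the difference from CSE was 1.68 ± 0.27 (3.19-fold, limma adjusted p = 0.00483). Cybb, its partner in phagocytes, was well above background on 1 OS array and on no CSE or ESC array, and Ncf1 differed by -0.51 ± 0.17 (adjusted p = 0.105). Neither Ets factor was called. Spi1 was not well above background on any of the 11 arrays, with 4.88 to 5.28 in OS and 5.05 to 5.29 in CSE. The Spib probe, for the related factor of B and plasmacytoid dendritic cells, read 6.92, 7.09, 6.48 and 5.13 in OS and 8.61 and 6.58 in ESCs, and was not well above background on any CSE array (1.42 ± 0.56, adjusted p = 0.168; without OS6 1.85, adjusted p = 0.048).

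Set against ESCs, which hold no leukocytes, few of the genes were raised in OS. OS were higher than ESCs for 3 of the 37 genes (18.4% of all genes were called higher) and lower for 3 (20.4% of all genes were called lower), with a median difference of 0.16. The genes higher in OS were Cd14 (6.12 ± 0.89, 69.3-fold, limma adjusted p = 0.00105), Cyba (2.34 ± 0.31, adjusted p = 0.000595) and Lcp1, the actin bundler L-plastin (1.52 ± 0.37, adjusted p = 0.0144). Lcp1 read 8.73, 7.48, 8.55 and 8.51 in OS and 6.45 and 7.13 in ESCs, and without ESC1 it missed the threshold (adjusted p = 0.116). Those lower in OS were Laptm5 (-4.18 ± 0.48), Coro1a (-4.00 ± 0.26) and Mrc1, which read 6.33 and 7.36 in ESCs (at least 3.12-fold over OS). CSE, in turn, were higher than ESCs for 18 of the 37 genes (20.9% of all genes) and lower for 3 (20% of all genes), with a median difference of 0.75. CSE was at least 24-fold over ESCs for Cx3cr1 and at least 19.2-fold for Tyrobp, neither of which was well above background on an ESC array, and the difference was 6.04 ± 0.89 for Pf4, detected on 1 of the 2 ESC arrays. The 3 lower in CSE than in ESCs were Laptm5, Coro1a and Spib. The comparisons share their samples, so they are given side by side and not as separate evidence.

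Across the 3 groups, 25 of the 37 genes differed (limma F test, adjusted p below 0.05), where 48.7% of all genes did. Assigned to the group mean pattern they correlated with best, 17 of the 25 were high in CSE alone, a pattern that 15% of all differing genes had. Cd14 and Cyba were high in OS alone, Laptm5 and Coro1a in ESCs and CSE, Lcp1 and Aif1 in OS and CSE, and Cd74 and Spib in ESCs and OS. By detection, 30 of the 37 probes were well above background on all 3 CSE arrays, 13 on all 6 OS arrays and 16 on both ESC arrays, so part of the list gave signal in a culture without leukocytes. The groups have unequal numbers of arrays, which alone changes such counts, so the groups cannot be ranked by them. The shares over all genes were not counted. On the other side, 6 probes were above background on no CSE array, 8 on no OS array and 16 on no ESC array.

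The OS samples differed among themselves in these genes. OS3 was the highest OS sample for 20 of the 37 genes and OS6 the lowest for 21. These counts were not made over all genes, so the order is not shown to be particular to this list. They also include the 8 probes that were above background on no OS array. The mean gene-centred level of the list was -0.13, 0.23, -0.44 and -0.88 in OS1/2, OS3, OS4/5 and OS6, compared with 0.64 to 0.89 in CSE and -0.70 and -0.47 in ESCs. OS of slide 2 (OS4/5 and OS6) against those of slide 1 (OS1/2 and OS3) gave a median difference of -0.43, and 0 of the 37 genes passed the adjusted threshold in limma, with 11 (29.7%) below an unadjusted p of 0.05 compared with 17.8% of all genes (0.097% of all genes were called higher and 0.0808% lower). Pf4 came nearest, with a difference of -2.62 ± 0.42 (adjusted p = 0.07), and the 4 MHC class II genes differed by -2.69 to -1.31. Slide and otosphere batch cannot be told apart in this comparison. Between OS and CSE, 33 of the 37 genes had the same sign on both slides, 25 negative and 8 positive. The share of all genes with the same sign was not counted, and CSE3 was the sole CSE sample on slide 2. The count includes small differences of probes below background, such as Spi1 (-0.12 on slide 1 and -0.13 on slide 2).

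**Figure D4:**
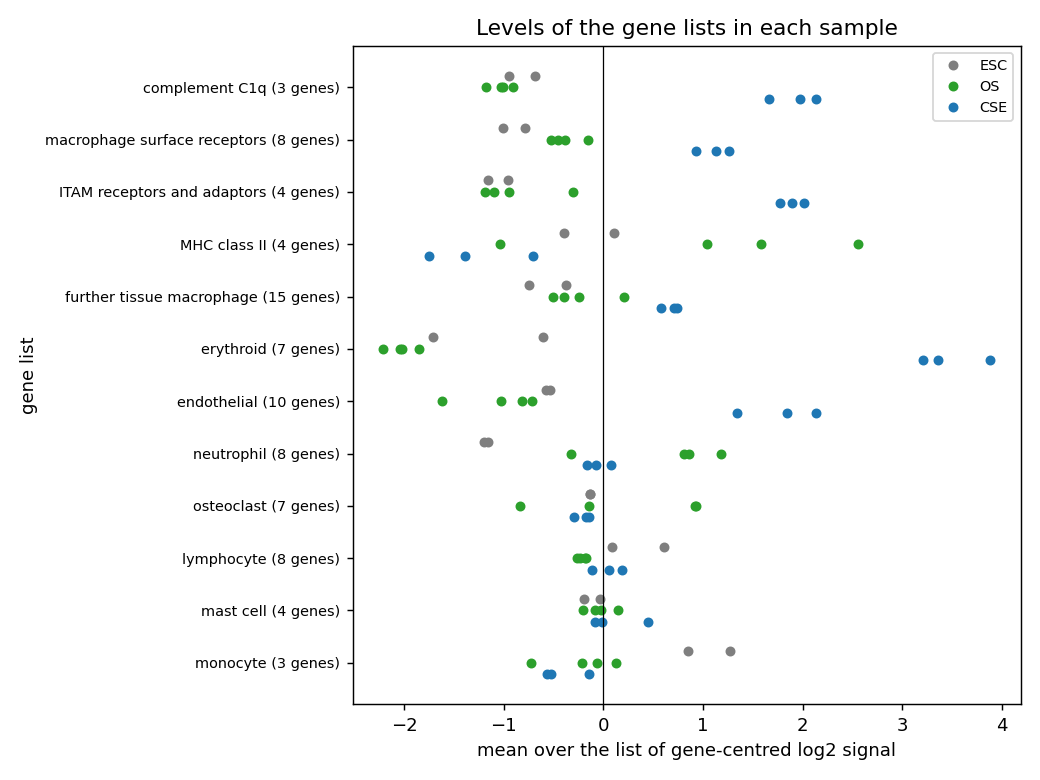
Mean gene-centred log2 signal of 12 gene lists in each sample, for ESCs (grey), OS (green) and CSE (blue), with the number of genes in brackets. The C1q, receptor, ITAM, further tissue macrophage, erythroid and endothelial lists lie to the right in CSE, whereas the MHC class II list does so in OS1/2, OS3 and OS4/5.

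Further markers of tissue macrophages were examined in the same way. Of 15 such genes measured, 6 were lower in OS and 0 higher, with a median of -0.87. Of all genes, 10.3% were called lower and 7.17% higher. Some probes of this list were bright in ESCs too, with Siglech at 15.45 and 15.14 and Itgam at 11.8 and 11.65 in ESC1 and ESC2. Stab1, the scavenger receptor stabilin-1, read 5.78, 5.65, 5.24 and 5.45 in OS and 10.16, 9.69 and 9.69 in CSE (-4.32 ± 0.20, limma adjusted p = 1.44e-05). CSE was at least 5.17-fold over OS for Lyve1, which lymphatic vessels also express, and the difference was -1.66 ± 0.21 for Fcrls, a microglial Fc receptor-like gene. Markers of blood and vessels moved the same way. Of 7 erythroid genes, 5 were lower in OS, with list levels of -2.21 to -1.85 in OS, 3.21 to 3.88 in CSE and -1.71 to -0.61 in ESCs, and Hbb-bt, Hbb-bs and Alas2 were not well above background on any OS array. Of 10 endothelial genes, 7 were lower in OS, with list levels of -1.62 to -0.72 in OS, 1.34 to 2.13 in CSE and -0.58 to -0.54 in ESCs. Their part in the differences of the macrophage genes was not tested.

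Few markers of other leukocytes were called between OS and CSE, where 7.17% of all genes were called higher in OS and 10.3% lower. Of 8 lymphocyte, 4 mast cell and 3 monocyte genes, 0 were called between OS and CSE by limma, with 1, 0 and 0 below an unadjusted p of 0.05. The neutrophil list had 1 of 8 genes called, Ltf (lactoferrin, which secretory epithelia also make), at 10.39, 11.40, 10.78 and 9.59 in OS and 5.48 to 5.75 in CSE (4.88 ± 0.37, limma adjusted p = 0.000139). Differences over the 8 neutrophil genes went both ways, from -1.86 to 4.88, with a median of 0.01. The osteoclast list had 1 of 7 genes called, Acp5, at 2.67 ± 0.34 (limma adjusted p = 0.00149). Acp5 read 12.17 in ESC1, above its OS values of 10.97 to 12.04, and 11.12 in ESC2, within them. Ranges of the list levels in OS and CSE were -0.32 to 1.18 and -0.16 to 0.08 for neutrophils, and -0.84 to 0.93 and -0.29 to -0.14 for osteoclasts.

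Ligands, regulators and related proteins were examined next, where 7.17% of all genes were called higher in OS than in CSE and 10.3% lower. Of 9 colony stimulating factors and receptors, 2 were higher in OS and 0 lower. Csf1, the ligand of Csf1r, read 13.44, 12.93, 12.48 and 11.14 in OS, 8.79, 8.25 and 8.53 in CSE and 9.48 and 9.0 in ESCs, a difference of 3.97 ± 0.48 from CSE (15.7-fold, limma adjusted p = 0.00117). Csf3, the granulocyte factor, was at least 4.42-fold over CSE, where its probe did not reach the detection limit. Every OS sample was above every CSE sample for both ligands, and OS6 was the lowest OS sample for Csf1 as for Cd14. Of 10 myeloid transcription factors, 2 were higher in OS, Cebpb (3.29 ± 0.38, limma adjusted p = 0.000988) and Runx1 (2.04 ± 0.32, limma adjusted p = 0.00432), both of which epithelial cells also use.

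Of 8 regulators and chaperones of MHC class II, 0 were called by limma, with 1 below an unadjusted p of 0.05. Ciita, the transactivator of class II genes, read 5.99, 5.96, 5.85 and 5.52 in OS and 5.53, 5.37 and 6.07 in CSE, so the groups overlapped. Of 7 other NADPH oxidase subunits, 2 were lower in OS, Rac2 (-1.40 ± 0.17) and Ncf4 (-1.38 ± 0.18), which encode cytosolic partners of the phagocyte enzyme. Of 11 complement genes other than C1q, 1 was called. C3, the central component, read 15.19, 15.62, 13.30 and 10.19 in OS and 8.78, 9.47 and 9.35 in CSE (4.37 ± 1.12, limma adjusted p = 0.0379), again with OS6 lowest, and the median of the list was 2.01. Of 12 general lysosomal genes, 6 were higher in OS and 0 lower, with Ctsl at 1.93 ± 0.32 and Ctsd at 1.87 ± 0.19, a direction opposite to that of Ctss.

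**Figure D5:**
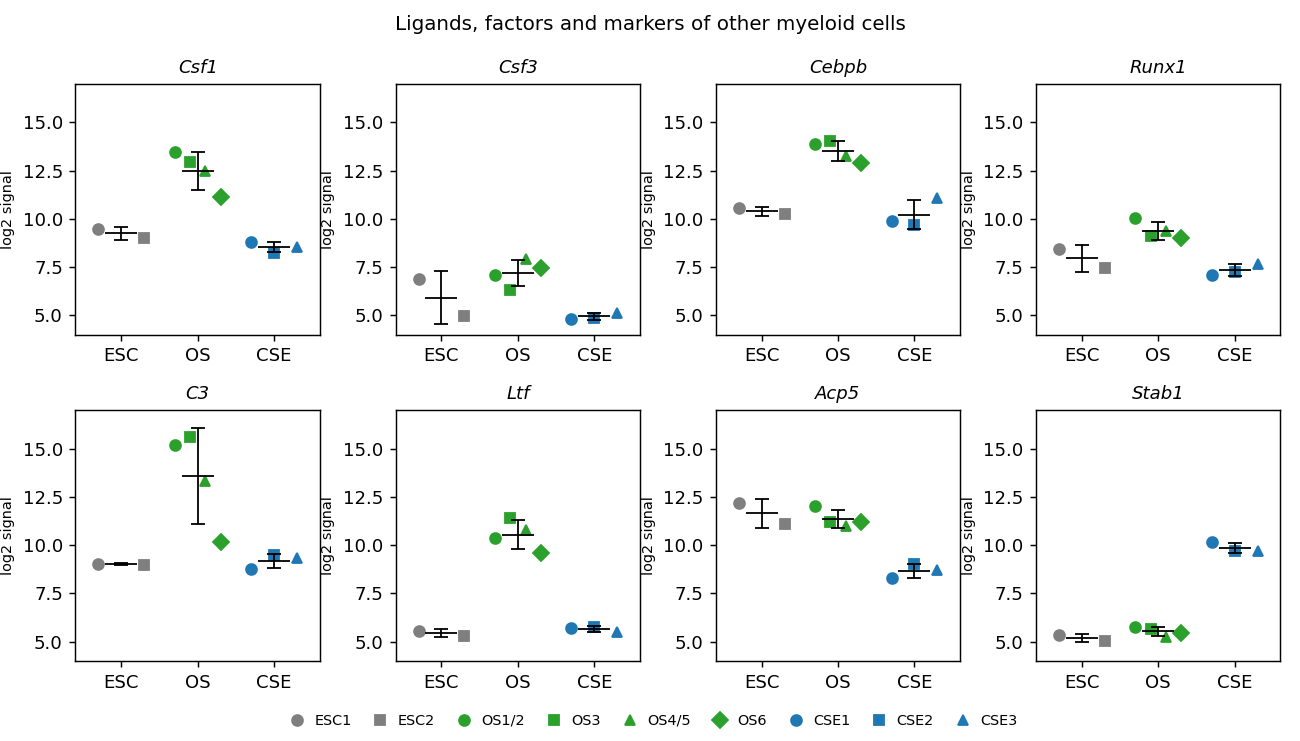
Log2 signal of 8 genes outside the list of 37 in each ESC (n = 2), OS (n = 4) and CSE (n = 3) sample, with marker shapes for samples and black bars for the mean and SD. Csf1, Csf3, Cebpb, Runx1, C3, Ltf and Acp5 have every OS sample above every CSE sample, and Stab1 has every OS sample below.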

How the data were processed

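Cy3-labelled RNA of 11 samples was hybridised to 1-colour Agilent mouse 60K arrays and extracted with Feature Extraction 10.7.3.1, per the file headers. The deposited scanner files hold intensity values (median signal and local background, linear scale). A table of log2 values by the authors was deposited too, for which the study's methods name limma's background correction, quantile normalization and a filter on dim probes. That table served as an alternative.

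Here R 4.3.3 and limma 3.58.1 were used: normexp correction with an offset of 16, quantile normalization, log2, outlier spots removed and spots of a probe averaged. A probe was kept (47997 of 55681) if on 2 or more arrays its signal exceeded by 10% or more the 95th percentile over 308 negative control spots. The methods name 3 arrays, which was an alternative. Of the kept probes, 24479 matched 1 RefSeq symbol. lmFit and eBayes were fitted to 4 OS, 3 CSE and 2 ESC samples, with Benjamini-Hochberg adjustment over all kept probes. Code was tested on simulated data. "Well above background" is the scanner's own call. "At least N-fold" compares the bright group's mean with the detection limit of each dim array (its weakest signal so called) or with the dim probe's own signal, whichever is higher.

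The genes and lists were chosen with earlier results of these data known. Values in every sample were given, by role, for up to 3 called genes with the largest difference between OS and CSE, for every gene called higher in OS and, where none was called, for the 2 with the largest change. Genes further named (Csf1r, Ptprc, Aif1, Lyz1, Lyz2, Gpnmb, H2-Ab1, H2-Aa, Lcp1, Ciita, Siglech and Itgam) were chosen after their values were seen. The number of arrays limits the precision. Levels of different probes were not compared. Other lists named up to 3 called genes each. Alternatives were the offset, 75th percentile scaling, the deposited table, the filter, separate arrays, a slide or replicate block, the next brightest probe and leaving out each sample. The quoted fits without OS6 for Gpnmb, H2-Ab1, H2-Aa and Spib leave out their lowest OS sample. Leaving out any other sample gave no call of these genes between OS and CSE. Promoter sequences are from RefSeq (GRCm38.p6). The arrays' probe sequences and the proteins were not used here, and 1 gene of a list is not reported here.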

Additional observations from a re-analysis of the deposited data

Results flagged for a closer look

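In the group of 4 OS samples, 1 of the 37 genes had a sample far from the others by Dixon's test. Lyz2 read 7.36 in OS3 and 4.84 to 5.02 in the other OS samples, a gap of 0.926 of the whole range. Chance flags about 1 gene in 20. Lyz1, whose transcript is nearly identical, read 9.42 in OS3 and 5.28 to 5.99 in the other OS samples.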

How the results depend on the processing

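Between OS and CSE, 19 to 26 of the 37 genes were called over all alternatives, against 21 as reported, with no change of direction of a called gene. Of the 21 genes, 18 kept their call in every alternative. The exceptions were Csf1r, Cd74 (both named above) and C1qc, which gave -0.52 in the deposited log2 table (adjusted p = 0.0757), where this probe's values of 0.31 to 0.93 are on an unclear scale and may not be comparable log2 signals. Leaving out 1 sample gave 19 to 25 calls, the most without OS6 (7 higher and 18 lower). Scaling to the 75th percentile gave 5 higher and 18 lower. Blocking on slide gave 22 calls. The fit with the replicate block and every array separate gave 26 calls, 7 higher and 19 lower, and 12 between OS and ESCs (6 as reported). Same-numbered arrays of different groups had deviations correlated between -0.392 and 0.356, so the numbers were not taken to pair samples. Leaving out 1 sample gave 6 to 11 calls between OS and ESCs (11 without OS6) and 13 to 22 between CSE and ESCs (13 without ESC1, 21 as reported, of which 11 genes kept their call in every alternative). Between OS4 to OS6 and OS1 to OS3, where 0 genes were called, every array as a separate sample gave 4 and leaving out 1 sample gave 0 to 3 (3 without OS1/2, 1 without OS4/5). The F test called 25 genes, and the methods' analysis of variance 20. The 6 to 16 genes of a group not well above background on any array have only a bound there, and 2 ESC lines give little measure of spread.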
